A study of Homo sapiens with 6 samples.

Results

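The G1 cyclins, their partner kinases and the inhibitors of those kinases were described in MHCC-97H cells exposed to GK921. The set comprised 10 genes of the 20388 gene symbols in the expression table and was chosen by symbol: the D cyclins CCND1 and CCND3, the E cyclins CCNE1 and CCNE2, the kinases CDK4, CDK6 and CDK2, and the inhibitors CDKN2B, CDKN1A and CDKN1B. MHCC-97H is an established human hepatocellular carcinoma line, labelled wild type for genotype and grown in DMEM with serum. GK921, which inhibits transglutaminase 2 (TGM2), was applied at 2 µM in 3 libraries, and the other 3 came from cells with DMSO, both after 24 h. All libraries came from this single line, so no other tumour and no normal hepatocyte stands beside it. Whether libraries of a group stem from separate cultures is not stated, and p-values below rest on the spread of these libraries alone, possibly a technical one.

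A cell in G1 commits to DNA replication when cyclin-dependent kinases (CDKs) phosphorylate the retinoblastoma protein RB1 and its relatives, which releases E2F transcription factors. D cyclins activate CDK4 and CDK6 in response to growth signals, and E cyclins then activate CDK2. INK4 inhibitors such as the product of CDKN2B (p15) bind CDK4 and CDK6, whereas the CIP/KIP inhibitors CDKN1A (p21) and CDKN1B (p27) bind cyclin-CDK complexes, those of CDK2 in particular. Amplified or overexpressed CCND1 and CCNE1 are known in liver cancer, and CDK4 and CDK6 are drug targets in other tumours.

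Levels are in FPKM (fragments per kilobase, scaled to mapped fragments), a scale per length on which different genes can be set side by side. Each library had 13992 to 14433 genes above 0. The sources used here state no read totals. Relative depths, estimated from the spacing of low FPKM values, were 0.767, 0.772 and 0.863 in the GK921 libraries and 1, 0.942 and 0.872 in the DMSO libraries. Correlations across genes were 0.993 to 0.995 between libraries of the same group and 0.914 between libraries of different groups. Of 10 markers of liver carcinoma, the epithelial keratins KRT8 and KRT18 were abundant, while the other 8, ALB and AFP included, stayed under 1 FPKM on average in both groups, GPC3 at 0, so hepatocyte genes such as ALB did not show the labelled tissue. The summed level of 5 fibroblast markers was 1.07 to 1.45 FPKM after GK921 and 7.38 to 9.22 FPKM in DMSO, nearly all of it DCN, with COL1A1 at or near 0. Of the defining markers of leukocytes and endothelium, PTPRC stayed under 1 FPKM on average in both groups, and CDH5 was at 0. The 5 leukocyte markers summed to 93.2 to 109.7 FPKM after GK921 and 103.9 to 112.6 FPKM in DMSO, nearly all of it CD68, which was not called as deposited and was called lower after scaling by median ratios or upper quartiles. The 4 endothelial markers summed to 6.20 to 7.85 FPKM after GK921 and 5.23 to 5.77 FPKM in DMSO, and of them KDR was called higher, at 2.69 ± 0.185 FPKM after GK921 and 1.62 ± 0.25 FPKM in DMSO (limma adjusted p = 0.00582), a call that quantile scaling ended. The part of these markers in the results was not tested. TGM2, the target of the drug, was at 42.6 ± 0.345 FPKM after GK921 and 42.1 ± 0.0265 FPKM in DMSO (SD, n = 3 each, here and for all later means). It was not called as deposited and was called lower with median-ratio scaling.

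The D cyclins, CCNE2, CDK2 and CDK4 fell after GK921, and the 3 inhibitors rose. CCNE1 was called higher as deposited, by a small difference whose call ended under 3 of the 4 rescalings. The largest fall was that of CCND1, 3.45-fold, and the largest rise that of CDKN2B, 4.0-fold. Differences were tested with limma on log2(FPKM + 1) across all genes averaging 1 FPKM or more, and a gene was called at a Benjamini-Hochberg adjusted p under 0.05. All 10 genes passed this expression limit. Of them 5 were called lower, against 29.2% of the 11573 tested genes, and 4 were called higher, against 46.8%. The 9 called genes compare with 75.9% of all tested genes, so a call by itself was common. For 9 of the 10 genes no value of a group lay within the range of the other, where this held for 78% of tested genes: 4 lay higher after GK921 (48% of tested genes) and 5 lower (30%). As deposited, CCND1, CCND3, CCNE2, CDK2, CDKN1A and CDKN2B were called with a log2 change of at least 1 in size, reached by 16.1% of tested genes. CDKN1A was under that size after scaling by median ratios (0.91) or upper quartiles (0.97), and CCNE2 with a pseudocount of 5 (-0.92), all still called. The median log2 change was -0.28 over the 10 genes and 0.16 over all tested genes. After scaling by median ratios, where the median of all genes was -0.0013, 3 of the 10 were higher and 6 lower, CCNE1 losing its call and CDK6 gaining one, and the share of rises among all calls was 49.1% instead of 61.6%. In these bulk libraries, fewer cells in a phase and less RNA per cell cannot be told apart.

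**Figure D1:**
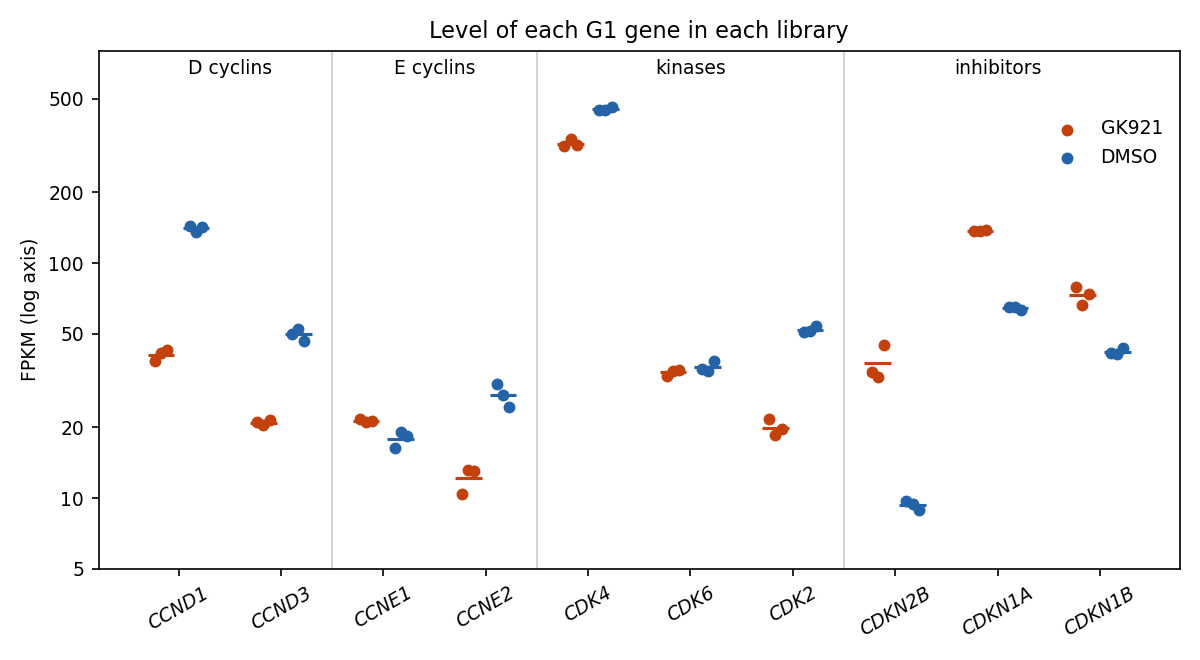
FPKM on a log axis of the 10 G1 genes, ordered by role, with the 3 GK921 libraries left and the 3 DMSO libraries right for each gene; points are libraries and bars are group means. The GK921 points lie below the DMSO points for CCND1, CCND3, CCNE2, CDK4 and CDK2, above them for CCNE1 and the 3 inhibitors, and among them for CDK6.

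Both D cyclins fell. CCND1 (chr11:69641087-69654474 in GRCh38, plus strand) encodes cyclin D1, the sensor of growth signals most often overexpressed in carcinomas. It was at 38.4, 41.5 and 42.6 FPKM in the GK921 libraries, against 143, 136 and 143 FPKM in the DMSO libraries. Every GK921 library was far under every DMSO library, with a log2 change of -1.76 ± 0.048 (SE, limma adjusted p = 4.59e-09), or -1.92 relative to the median gene. The gene stood at the 69.7th percentile of tested genes by level after GK921 and at the 91.8th in DMSO. CCND1 shares 497 exonic bases (10.3% of its own) with LTO1 on the opposite strand. LTO1, which acts in ribosome and iron-sulphur protein assembly, also fell, to 47.3 ± 3.51 FPKM after GK921, against 106.6 ± 6.69 FPKM in DMSO. The sources used here do not say whether counting used strand, so reads from the shared stretch cannot be told apart.

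CCND3 (chr6:41934933-42050357, minus strand) encodes cyclin D3, the D cyclin most prominent in lymphoid and differentiating cells. It was at 21.1, 20.4 and 21.4 FPKM after GK921 and at 50.1, 52.4 and 46.5 FPKM in DMSO. The groups were apart by more than their spread, with a log2 change of -1.20 ± 0.056 (SE, limma adjusted p = 1.19e-07). It has 2 annotated processed pseudogenes, whose share of its reads is not known. The third D cyclin gene, CCND2, was listed at 0 in all 6 libraries. The summed D cyclin level was 61.8 ± 2.25 FPKM after GK921 and 190.4 ± 2.64 FPKM in DMSO, a 3.08-fold lower sum.

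The E cyclins differed: CCNE2 fell, and CCNE1 was slightly higher as deposited, a call that did not hold under 3 of the 4 rescalings. Cyclin E1 and cyclin E2 are close relatives that both activate CDK2 at the start of S phase. CCNE2 (chr8:94879770-94896678, minus strand) was at 10.4, 13.1 and 12.98 FPKM after GK921, against 30.5, 27.4 and 24.5 FPKM in DMSO. All GK921 values were under all DMSO values, with a log2 change of -1.11 ± 0.11 (SE, limma adjusted p = 1.23e-05). INTS8, a subunit gene of the Integrator complex on the opposite strand, covers 37.0% of the exonic bases of CCNE2 and was at 37.4 ± 0.866 FPKM after GK921 and 37.4 ± 1.88 FPKM in DMSO. It was not called as deposited (limma adjusted p = 0.994), and was called lower with median-ratio scaling. As for CCND1, reads from the shared stretch cannot be told apart, so the level of CCNE2 carries this limit.

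CCNE1 (chr19:29811898-29824308, plus strand) was at 21.6, 21.2 and 21.3 FPKM after GK921 and at 16.3, 19.0 and 18.4 FPKM in DMSO. The GK921 values were all higher and closer together, and the difference was small: a log2 change of 0.24 ± 0.067 (SE, limma adjusted p = 0.00916), or 0.09 relative to the median gene. Scaling by median ratios, upper quartiles or quantiles ended the call, at limma adjusted p-values of 0.33, 0.0939 and 0.172, as did a test against a 1.2-fold change (limma adjusted p = 0.857). Together the E cyclins summed to 33.5 ± 1.28 FPKM after GK921 and 45.4 ± 2.2 FPKM in DMSO. CCNE1 made up 61.7% to 67.5% of that sum in the GK921 libraries and 34.9% to 42.9% in the DMSO libraries. By these values CCNE1 was the more abundant E cyclin transcript in each GK921 library and CCNE2 in each DMSO library. The limit on CCNE2 reads shared with INTS8 applies to this order.

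Of the kinases, CDK2 fell most, CDK4 fell less, and CDK6 depended on the scaling. CDK2 (chr12:55966769-55972784, plus strand) encodes the partner of E and A cyclins. It was at 21.7, 18.6 and 19.6 FPKM after GK921, against 50.7, 51.5 and 53.9 FPKM in DMSO. The groups did not overlap, and the level was 2.61-fold lower after GK921 (log2 change -1.34 ± 0.063 SE, limma adjusted p = 1.19e-07). A lncRNA annotated on the opposite strand covers 14.5% of its exonic bases, and PMEL, a pigment cell gene, 2.29%.

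CDK4 (chr12:57747727-57756013, minus strand) was the most abundant of the 10 transcripts in both groups. Its values were 314, 337 and 317 FPKM after GK921 and 447, 447 and 460.0 FPKM in DMSO. The fall was 1.40-fold and exceeded the spread in each group (log2 change -0.48 ± 0.033 SE, limma adjusted p = 1.45e-06). TSPAN31, a tetraspanin gene on the opposite strand, covers 43.2% of the exonic bases of CDK4 and rose 2.28-fold, to 32.4 ± 0.869 FPKM after GK921, against 14.2 ± 2.52 FPKM in DMSO. Reads from this shared stretch cannot be told apart either, since strand handling is not stated. CDK4 also has 1 annotated processed pseudogene.

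CDK6 (chr7:92604921-92836594, minus strand), the close relative of CDK4, was at 33.1, 34.8 and 35.2 FPKM after GK921 and at 35.4, 34.6 and 38.4 FPKM in DMSO. The groups overlapped, and the log2 change of -0.07 had a 95% interval from -0.20 to 0.06 (limma adjusted p = 0.273). Relative to the median gene the change was -0.23, and CDK6 was called lower after scaling by median ratios, upper quartiles or quantiles, at limma adjusted p-values of 0.00307, 0.0154 and 0.0176.

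The promoter of CDK4 is shown because the gene is a textbook target of MYC, which binds E-boxes (CACGTG) with its partners, and the series title names MYC signalling. The window runs from 250 bases before to 50 after the RefSeq start (GRCh38.p14, chr12:57752261-57752560, minus strand, written 5′ to 3′ along the gene), with capitals at each CACGTG and at each GC box (GGGCGG on either strand, the motif of SP1).
CDK4: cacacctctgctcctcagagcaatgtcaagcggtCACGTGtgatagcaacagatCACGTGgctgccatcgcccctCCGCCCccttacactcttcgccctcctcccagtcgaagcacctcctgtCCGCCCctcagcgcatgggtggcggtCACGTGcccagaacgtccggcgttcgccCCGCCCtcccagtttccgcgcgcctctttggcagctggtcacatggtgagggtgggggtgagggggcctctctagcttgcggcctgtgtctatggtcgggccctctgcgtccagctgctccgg

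It holds 3 E-boxes, which begin at positions -216, -196 and -101 from the start site. Of 27305 RefSeq promoters of this length, 7.43% hold at least 1 CACGTG and 0.103% hold 3 or more. CDK6 holds 1, which begins at base 31 of the transcript, and no other of the 7 promoters searched holds any. These 7 were CCND3, CCNE1, CDK4, CDK6, CDKN1A, CDKN1B and CDKN2B; those of CCND1, CCNE2 and CDK2 were not analysed here. MYC mRNA, named here after its value was seen, was at 135 ± 1.43 FPKM after GK921 and 103 ± 4.82 FPKM in DMSO, called higher under each scaling. These libraries hold no measure of MYC protein or of its binding. A part of MYC in the fall of CDK4 was not tested.

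All 3 inhibitors rose. CDKN2B (chr9:22002903-22009363, minus strand) encodes p15, a brake on CDK4 and CDK6 best known as a target of TGF-beta signalling. It was at 34.5, 32.8 and 44.8 FPKM after GK921, against 9.70, 9.43 and 8.87 FPKM in DMSO. The third GK921 library was above the other GK921 libraries, and the lowest of the 3 was still far above every DMSO library. The log2 change was 1.88 ± 0.11 (SE, limma adjusted p = 4.79e-07), a change that 98.3% of tested genes did not exceed. It was 1.75 without the third GK921 library, again called (limma adjusted p = 3.24e-07 to 1.96e-05 over all settings tried).

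CDKN1A (chr6:36676460-36687339, plus strand) encodes p21, a mediator of cell cycle arrest that several stress pathways induce. It was at 136, 137 and 139 FPKM after GK921 and at 64.9, 65.0 and 63.0 FPKM in DMSO. These were the least variable values of the 10 genes in the GK921 group, with a coefficient of variation of 0.897% there and 1.71% in DMSO. The rise was 2.14-fold (log2 change 1.08 ± 0.033 SE, limma adjusted p = 9.20e-09). A lncRNA annotated on the opposite strand covers 4.79% of its exonic bases.

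CDKN1B (chr12:12715058-12722371, plus strand) encodes p27, the inhibitor that accumulates in quiescent cells, largely through its protein stability. It was at 79.3, 66.2 and 73.7 FPKM after GK921, against 41.3, 41.0 and 43.4 FPKM in DMSO. All GK921 values were higher, by 1.74-fold on average, with a wider spread than in DMSO (log2 change 0.78 ± 0.065 SE, limma adjusted p = 5.01e-06).

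**Figure D2:**
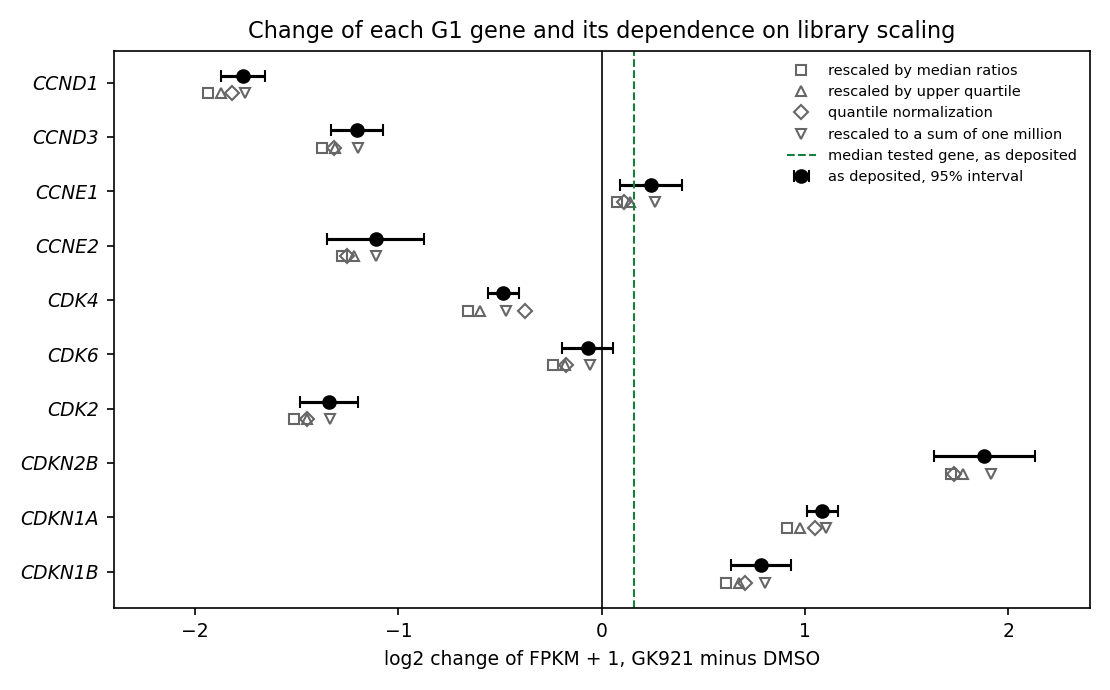
Log2 change of FPKM + 1 in GK921 minus DMSO libraries for each G1 gene; black points are the deposited values with limma 95% intervals, open symbols the same change after 4 rescalings of the libraries, and the dashed line the median tested gene (0.16). The signs of the changes do not differ between scalings, and CCNE1 and CDK6 are the genes close enough to 0 for the scaling to decide the call.

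The promoters of the 3 inhibitors are shown because these genes rose together. The windows are built as for CDK4, from RefSeq in GRCh38.p14: chr9:22009256-22009555 for CDKN2B (minus strand), chr6:36678464-36678763 for CDKN1A (plus strand) and chr12:12717118-12717417 for CDKN1B (plus strand). Capitals mark GC boxes (GGGCGG) and CCAAT boxes (CCAAT), each on either strand.
CDKN2B: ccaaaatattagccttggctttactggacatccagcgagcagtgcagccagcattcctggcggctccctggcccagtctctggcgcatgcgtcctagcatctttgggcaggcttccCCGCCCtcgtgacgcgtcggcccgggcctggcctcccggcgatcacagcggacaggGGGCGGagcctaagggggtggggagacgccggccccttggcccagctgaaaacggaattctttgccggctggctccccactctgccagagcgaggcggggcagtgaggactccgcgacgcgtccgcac
CDKN1A: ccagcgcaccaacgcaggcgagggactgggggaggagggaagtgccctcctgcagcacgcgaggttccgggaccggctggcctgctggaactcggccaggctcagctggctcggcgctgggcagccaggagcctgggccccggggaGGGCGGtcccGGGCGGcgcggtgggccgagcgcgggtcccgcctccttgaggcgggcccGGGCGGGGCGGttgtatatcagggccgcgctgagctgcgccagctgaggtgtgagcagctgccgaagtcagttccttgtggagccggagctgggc
CDKN1B: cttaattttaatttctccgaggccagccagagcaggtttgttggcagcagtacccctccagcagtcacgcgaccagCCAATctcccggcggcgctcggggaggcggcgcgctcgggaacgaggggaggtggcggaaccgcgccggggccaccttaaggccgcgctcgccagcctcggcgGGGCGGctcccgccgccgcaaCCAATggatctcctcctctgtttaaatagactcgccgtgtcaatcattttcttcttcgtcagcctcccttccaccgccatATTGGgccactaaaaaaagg

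A GC box was found in each of the 3, with 2 in CDKN2B, 4 in CDKN1A, of which a pair overlaps, and 1 in CDKN1B. All 7 promoters searched hold at least 1, as do 44.6% of all promoters, and their GC content was 62.3% to 81.0%, above the median of 58.3% over all promoters. CDKN1B also holds 3 CCAAT boxes, a number reached by 3.42% of promoters, and no other searched member holds any. None of the 7 windows holds the E2F words searched (TTTCCCGC, TTTGGCGC, TTTCGCGC or TTTGCCGC, in 3.33% of promoters), TGACGT (8.32%), TGANTCA (7.76%), TATAAA (12%), TGATGNAAT (1.02%) or TTTGAA (15.4%), on either strand. The FOXO word TGTTTAC, in 3.41% of promoters, was found in CCND3 alone, on the strand opposite to the gene. These are matches of letters within 300 bases, and sites elsewhere were not searched.

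Summed by role, transcripts of the 3 inhibitors in the set passed those of the 4 cyclins after GK921. The inhibitor sum leaves out CDKN2A and CDKN2C, which were called lower, and CDKN2D and CDKN1C, which were not called. With these included the quotient below would be higher in both groups, by a larger factor in DMSO, so the groups would differ by a smaller fold. That wider quotient was not computed. The 3 inhibitors summed to 248 ± 10.6 FPKM after GK921 and 116 ± 0.284 FPKM in DMSO. The 4 cyclins summed to 95.3 ± 3.42 FPKM after GK921 and 236 ± 4.13 FPKM in DMSO. The inhibitor-to-cyclin quotient was thus 2.46 to 2.73 in the GK921 libraries, against 0.482 to 0.497 in the DMSO libraries. The quotient of D cyclins to CDK4 plus CDK6 was 0.166 to 0.182 after GK921 and 0.38 to 0.401 in DMSO. These quotients are within a library and do not move when the whole library is rescaled. The 3 kinases summed to 377 ± 12.1 FPKM after GK921 and 540 ± 11 FPKM in DMSO, with CDK4 at 85.1% to 86.3% of the sum after GK921 and 83.3% to 83.9% in DMSO. CDKN1A remained the most abundant inhibitor, at 53.9% to 58.1% of the inhibitor sum after GK921 and 54.7% to 56.3% in DMSO, while the share of CDKN2B was 13.8% to 17.4% after GK921 and 7.69% to 8.37% in DMSO.

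**Figure D3:**
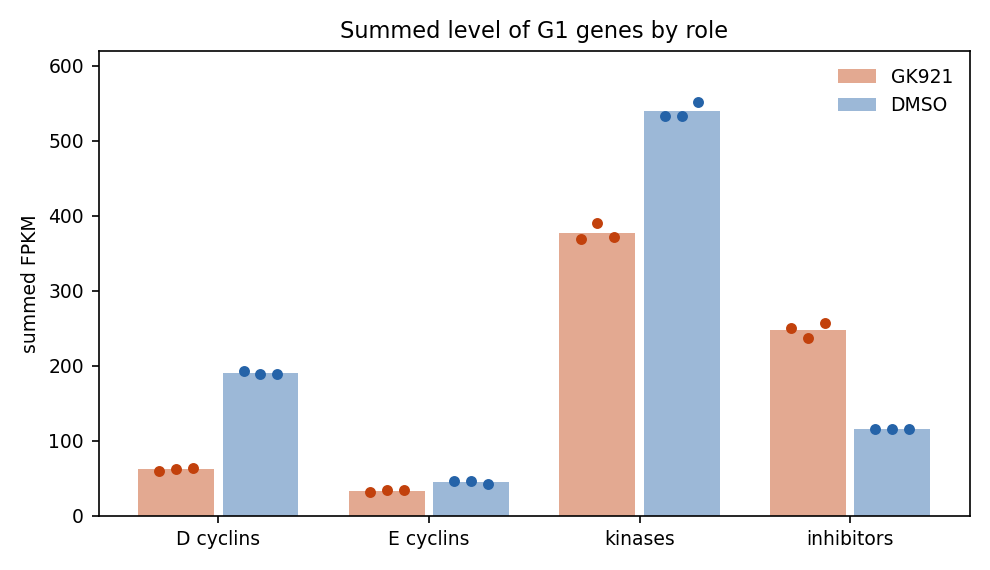
Summed FPKM of the D cyclins, E cyclins, kinases and inhibitors in GK921 (left) and DMSO (right) libraries; bars are means and points the 3 libraries of each group. The sum of the inhibitors CDKN1A, CDKN1B and CDKN2B is higher after GK921 (248 against 116 FPKM) and the sums of the other roles are lower.

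Within each pair of related genes, the quotients of the 2 groups lay apart in these libraries. The quotient of CCNE1 to CCNE2 moved most, at 2.08, 1.61 and 1.64 after GK921 and 0.536, 0.696 and 0.751 in DMSO, 2.70 times as high. The quotient of CCND1 to CCND3 was 1.82 to 2.03 after GK921 and 2.60 to 3.07 in DMSO, so CCND1 lost more than CCND3. CDK4 to CDK6 was 9.01 to 9.68 after GK921 and 11.97 to 12.9 in DMSO. CDKN1A to CDKN1B was 1.72 to 2.07 after GK921 and 1.45 to 1.59 in DMSO. The groups did not overlap for any of the 4 quotients, as was true of 78% of single tested genes. No share over other quotients was computed. An exact permutation test, two-sided, gave p = 0.1 for all of them, before and after adjustment over the 4, and 3 against 3 libraries allow no smaller p.

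**Figure D4:**
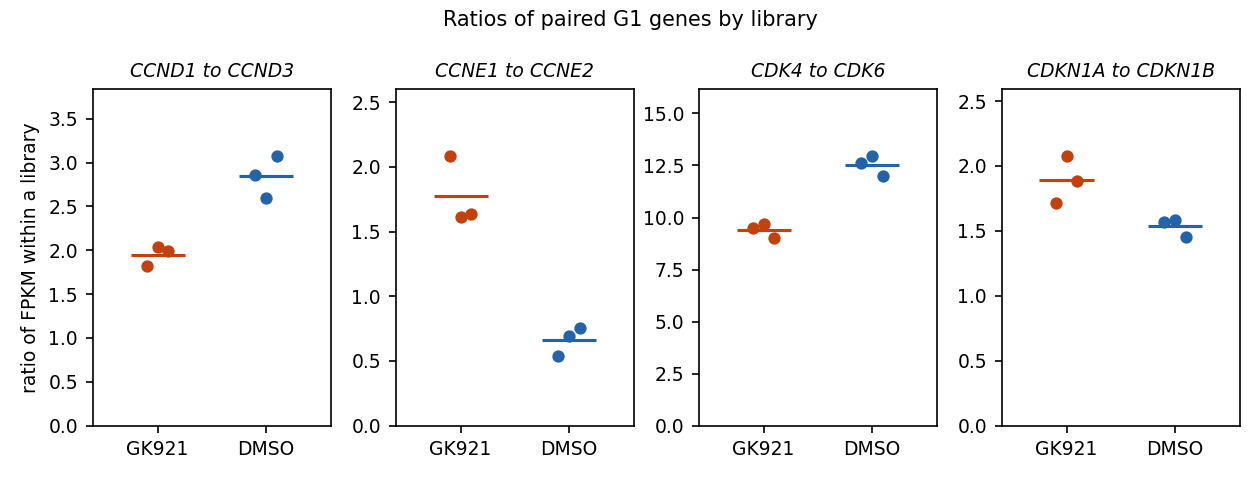
Quotient of FPKM of 2 related G1 genes within a library, in the 3 GK921 (left) and 3 DMSO (right) libraries; bars are group means and each axis starts at 0. CCNE1 to CCNE2 lies above 1 in the GK921 libraries (1.61 to 2.08) and below 1 in the DMSO libraries (0.536 to 0.751).

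The order of the levels differed between the groups below the first rank. After GK921 the order was CDK4, CDKN1A, CDKN1B, CCND1, CDKN2B, CDK6, CCNE1, CCND3, CDK2 and CCNE2. Among these, the library ranges of CCND1, CDKN2B and CDK6 overlapped from neighbour to neighbour, as did those of CCNE1, CCND3 and CDK2. In DMSO the order was CDK4, CCND1, CDKN1A, CDK2, CCND3, CDKN1B, CDK6, CCNE2, CCNE1 and CDKN2B, and the only neighbours with overlapping ranges were CDK2 and CCND3. CDKN2B thus held the fifth rank after GK921 and the lowest in DMSO, and CCND1 the fourth after GK921 and the second in DMSO.

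Among other regulators of the G1 kinases, more fell than rose. Of 11 listed genes 10 were tested, of which 2 were called higher and 6 lower. Over all tested genes 46.8% were called higher and 29.2% lower. The median log2 change was -0.23 in the list and 0.16 over all tested genes. CDC25A, the phosphatase that removes inhibitory phosphates from CDK2, fell 4.10-fold, to 5.35 ± 0.89 FPKM after GK921, against 21.9 ± 1.43 FPKM in DMSO. CKS2, a small CDK-binding subunit, fell 2.23-fold, and CDKN2C, the gene of the INK4 inhibitor p18, fell 2.28-fold, to 11.2 ± 0.492 FPKM after GK921, against 25.5 ± 1.32 FPKM in DMSO. CDK7, which activates other CDKs by phosphorylation, rose 2.00-fold, to 95.6 ± 1.22 FPKM after GK921, against 47.8 ± 1.28 FPKM in DMSO. Its assembly factor MNAT1 rose 1.16-fold, a call that scaling by median ratios, upper quartiles or quantiles ended.

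The INK4 genes did not share a direction. CDKN2A, named here after its values were seen, is the neighbour of CDKN2B on chromosome 9 and encodes p16 and, from another reading frame, ARF, which a value per gene cannot separate. It was at 23.1 ± 0.506 FPKM after GK921 and 27.8 ± 2.93 FPKM in DMSO, called lower (limma adjusted p = 0.0134). CDKN2B was accordingly 1.45 to 1.94 times as abundant as CDKN2A in the GK921 libraries and 0.285 to 0.367 times in the DMSO libraries. The fourth INK4 gene, CDKN2D, which encodes p19, was at 9.71 ± 1.08 FPKM after GK921 and 9.06 ± 1.43 FPKM in DMSO (limma adjusted p = 0.494). The third CIP/KIP gene, CDKN1C, which encodes p57, was at 7.61 ± 1.4 FPKM after GK921 and 7.45 ± 0.523 FPKM in DMSO (limma adjusted p = 0.918). CDKN2D and CDKN1C were also named after their values were seen.

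Genes that mark G1 cyclins and inhibitors for degradation moved both ways, with 4 of 14 tested higher and 6 lower (median log2 change -0.09). As deposited, 46.8% of all tested genes were higher and 29.2% lower. By median ratios 3 of the list were higher and 9 lower, where 4221 and 4374 of the 11573 tested genes were. FBXO31, a receptor that directs cyclin D1 to degradation after DNA damage, rose 3.00-fold, to 27.0 ± 3.27 FPKM after GK921, against 9.01 ± 0.339 FPKM in DMSO. FBXW7, the receptor for cyclin E, rose 1.47-fold, and RNF123, which acts on p27 in the cytoplasm, rose 1.29-fold. SKP2, the receptor that removes p27, fell 1.61-fold, to 7.84 ± 0.84 FPKM after GK921, against 12.6 ± 0.787 FPKM in DMSO. DTL, the receptor through which p21 is removed in S phase, fell 8.99-fold, to 4.33 ± 1.16 FPKM after GK921, against 39.0 ± 1.48 FPKM in DMSO. RBX1, the RING subunit of cullin ligases such as that of SKP2, fell 1.98-fold.

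Transcription factors reported upstream of CCND1 or of the inhibitor genes mostly rose. Of 24 tested, 16 were called higher and 5 lower, against 46.8% and 29.2% of all tested genes. The median log2 change was 0.62, and 16 were higher under each of the 4 rescalings. KLF4, an activator of CDKN1A, rose 3.16-fold, to 131 ± 4.25 FPKM after GK921, against 41.3 ± 1.4 FPKM in DMSO. STAT3, a mediator of cytokine signals, rose 2.66-fold. The immediate early gene EGR1 fell 4.08-fold, and CTNNB1 (beta-catenin) and its DNA-binding partner TCF7L2 fell 1.29-fold and 1.32-fold. The list does not separate factors by target gene or by direction of effect. Their part in the changes of CCND1 and the inhibitors was not tested. Of 10 tested growth arrest genes 6 were higher and none lower as deposited, beside the same shares of 46.8% and 29.2% of all tested genes. By median ratios 5 were higher and 1 lower. DDIT3, the stress factor CHOP, rose 7.26-fold, and the growth arrest genes GADD45A and GADD45B rose 5.40-fold and 4.97-fold.

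Downstream of the G1 kinases, E2F targets fell without exception in the list. All 20 tested E2F target genes of the G1/S transition fell (median -2.41), and all were called under each of the 4 rescalings as well. Among all tested genes 29.2% were called lower. The falls differed widely in size, from a log2 change of -0.25 (CDC6, named here after its value was seen) to -3.87. RRM2, a subunit of the enzyme that makes deoxynucleotides, fell 18.9-fold, GINS2 of the replicative helicase 16.8-fold, and CDC45, its partner, 10.9-fold. The E cyclin CCNE2, itself a textbook E2F target, thus moved with them at a log2 change of -1.11, and CCNE1, another, did not. Of 13 RB family and E2F genes, 5 were higher and 7 lower (median -0.32), where 46.8% and 29.2% of all tested genes were. E2F1 fell 6.15-fold, to 6.87 ± 0.921 FPKM after GK921, against 42.2 ± 2.31 FPKM in DMSO. The atypical repressor E2F8 fell to 0.277 ± 0.126 FPKM after GK921, against 5.25 ± 0.349 FPKM in DMSO, and the pocket protein gene RBL1 fell 3.86-fold. RBL2, the pocket protein of quiescent cells, rose 1.40-fold, the atypical repressor E2F7 1.54-fold and TFDP2, an E2F partner, 1.75-fold. TFDP1, another E2F partner, named here after its values were seen, fell 2.79-fold. It was at 20.5 ± 1.36 FPKM after GK921, against 57.1 ± 1.94 FPKM in DMSO. With median ratios 5 of the list were higher and 8 lower.

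All tested genes in the list of later phases fell, a list of cyclins and kinases that also holds the phosphatase genes CDC25B and CDC25C. Each of the 9 tested genes of the S, G2 and M list was called lower (median -1.96), as were 29.2% of all tested genes. CDK1, the mitotic kinase, fell 18.6-fold and CCNA2, which serves both CDK2 and CDK1, fell, to 6.38 ± 0.635 FPKM after GK921, against 82.9 ± 3.53 FPKM in DMSO. CCNB2 fell 4.58-fold. Among 19 tested transcriptional and atypical cyclins and CDKs, 10 were higher and 3 lower (median 0.28). Over all tested genes 46.8% were higher and 29.2% lower, so the 10 rises were near the share of all genes. By median ratios 7 of the list were higher and 7 lower. CCNG2, an atypical cyclin linked to cell cycle exit, rose 3.17-fold, to 55.7 ± 3.34 FPKM after GK921, against 17.6 ± 0.544 FPKM in DMSO. CDK19 of the Mediator complex rose 2.20-fold and CDK13, a kinase of RNA polymerase II, 1.76-fold. CCNG1, an atypical cyclin, fell 1.30-fold, CDK10 1.24-fold and CDK12 1.19-fold. Of 24 tested genes that neighbour the G1 genes on their chromosomes, 9 were higher and 10 lower (median -0.05), beside the same shares of all tested genes.

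**Figure D5:**
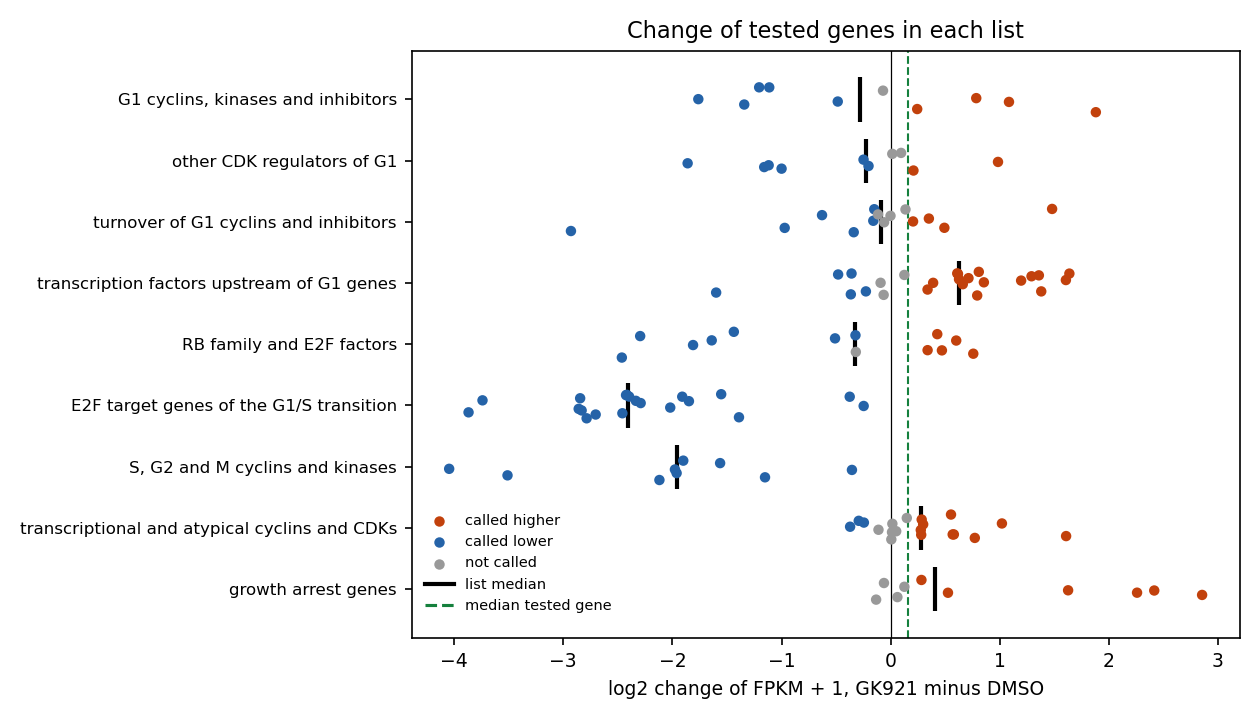
Log2 change of FPKM + 1, GK921 minus DMSO, of each tested gene in 9 lists, with called rises in orange, called falls in blue and genes without a call in grey; black bars are list medians and the dashed line is the median of all tested genes (0.16). The E2F targets and the S, G2 and M genes lie wholly below 0, with medians of -2.41 and -1.96, while the G1 genes spread from -1.76 to 1.88.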

How the data were processed

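RNA was sequenced from 6 libraries of MHCC-97H cells. Per the labels' protocols, RNA came from a Trizol extraction. Tools listed per the submitters' processing notes are HISAT2, featureCounts, FastQC 0.11.5 and edgeR, with hg38 as the build and no roles given. The sources used here state no annotation and no strand setting. The authors deposited FPKM per gene symbol with 2 decimals; the unit rests on the name of the deposited table, since library sums of 821498 to 836182 cannot tell it from TPM.

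Values were used as deposited. limma 3.58.1 (R 4.3.3) was fitted to log2(FPKM + 1) of all genes averaging 1 FPKM or more, with treatment as the only term, an intensity trend and Benjamini-Hochberg adjustment. A log2 change on this scale understates changes of low genes; folds are quotients of mean FPKM. The median tested gene changed by 0.16. Quotients of gene pairs were compared by exact permutation. The pipeline was tested on simulated data. Depth is unknown in absolute terms, and relative depth came from 15 pairs of libraries. Positions and overlaps are from GENCODE 29 (GRCh38) and promoters from RefSeq.

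Members, lists and tests were chosen with earlier results of these data known. Of the other lists, up to 3 called genes per direction, averaging 5 FPKM or more where higher, were named by size of change, plus TGM2 and neighbours that overlap a member. Some genes and a list that this rule covers are not reported here. The alternatives changed the pseudocount, the limit on low values or the scaling (4 ways), added the replicate block or array weights, left out each library or the trend, or tested against a 1.2-fold change.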

Additional observations from a re-analysis of the deposited data

How the results depend on the processing

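The 10 log2 changes were recomputed under 18 alternatives. Of these 180 values none changed sign, 173 kept their side of the threshold, 4 lost the call (all CCNE1) and 3 gained it (all CDK6). The members called numbered 8 to 9 over the alternatives, and 9 without any single library. Leaving out a library moved CCNE1 between 0.18 and 0.29, CDK6 between -0.10 and -0.03, and CDKN2B between 1.75 and 1.97. A test against a 1.2-fold change called 3595 genes higher and 2135 lower, against 5411 and 3378 in the test against no change, since it asks for a change above that size. The labels number the libraries of each group and state no pairing between groups. The correlations of the deviations of same-numbered libraries were small, at 0.0305, 0.0473 and -0.0021. GK921 libraries 1 and 2 correlated best with their own number, and library 3 did not. With the replicate block 5351 genes were higher and 3355 lower, and no member's call changed. For the 4 quotients, limma with the replicate block, fitted beside all genes, gave log2 changes of -0.54 (CCND1 to CCND3), 1.43 (CCNE1 to CCNE2), -0.41 (CDK4 to CDK6) and 0.30 (CDKN1A to CDKN1B). Its limma adjusted p-values were 0.00412, 0.00278, 0.00178 and 0.0211. That fit pairs libraries by number, a pairing that the labels do not state and that these small correlations do not settle. The p-values therefore do not replace the exact test, which cannot go below 0.1. Pseudocount and libraries left out kept the sign of all 4 quotients. The exact two-sided p of CDKN1A to CDKN1B was 0.2 without any single DMSO library, where the other quotients stayed at 0.1. Values near 0 are coarser in the GK921 libraries, by the estimated depth, though only slightly between the third libraries (0.863 for GK921 and 0.872 for DMSO). Among the called genes named, this concerns E2F8 most.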
